A study of Mus musculus with 12 samples.

Results

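The genes described here encode products of the club cell and of other secretory cells of the airway surface. They are the 9 genes Scgb1a1, Scgb3a1, Scgb3a2, Cyp2f2, Bpifa1, Bpifb1, Ltf, Pigr and Reg3g, found by symbol among the 55401 genes of the deposited expression table, and each matched 1 row. They were read in 12 RNA libraries of airway organoids grown from lung epithelial cells of adult C57BL/6J mice. In 6 dishes a femtosecond laser had ablated 10 neighboring cells in every organoid, and in 6 control dishes no cell was ablated, so that the comparison asks how the transcripts of the organoids changed during early repair. Each dish held 45 organoids, which were moved to FluoroBrite DMEM without supplements 1 h before the laser treatment and harvested 4.5 h after it. The control dishes went through the same steps apart from the laser. All dishes, controls included, carried a lentiviral histone 2A-mCherry fusion under a p63 promoter, a promoter active in basal cells, and had been grown in L-WRN conditioned medium (a source of Wnt3a, R-spondin and Noggin) with epidermal growth factor and the kinase inhibitor Y-27632.

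Ablation and control dishes carry the same 6 numbers (1, 3, 4, 5, 6 and 7), and each number stands for 1 passage and 1 day of culture, which gives 6 pairs. Pairs 1 and 3 came from passage 14 after P2, pairs 4 and 5 from passage 15 and pairs 6 and 7 from passage 16, at 14 to 20 days of culture. By their dates both pairs of a passage go back to a single plating, so the 6 pairs stand for 3 passages, each grown once. Library numbers fall into 2 sets of 3 pairs, set 1 with pairs 1, 3 and 5 and set 2 with pairs 4, 6 and 7. All of passage 14 was therefore in set 1 and all of passage 16 in set 2. The titles of controls 4, 6 and 7 hold the word ablation beside a C number while their treatment label says control, and they were taken as controls. The 9 libraries whose reads could be recovered held 23631212 to 29775699 reads on genes (median 28341576).

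Club cells are secretory cells of the airway epithelium that descend from basal cells, detoxify inhaled compounds and coat the surface with small proteins. The secretoglobins Scgb1a1, Scgb3a1 and Scgb3a2 are their small secreted proteins, and Scgb1a1 is the usual marker of the mature club cell. Cyp2f2 is a cytochrome P450 of club cells that oxidizes naphthalene. Bpifa1 and Bpifb1 are BPI fold proteins of airway fluid. Ltf is lactoferrin, an iron-binding protein of mucosal secretions that is also stored in neutrophil granules. Pigr carries polymeric immunoglobulin across the epithelium, and Reg3g is a C-type lectin that binds bacteria.

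The bases just before the start of a gene are shown for the 5 members with the highest levels, to set their sequence beside how differently these genes behaved. They are taken from RefSeq (build GRCm38.p6), which held an entry for 7 of the 9 members, and end before the first annotated base of the gene. The windows are chr7:27119705-27119908 (plus strand) for Cyp2f2, chr9:111019042-111019270 (plus strand) for Ltf, chr6:78468875-78469124 (minus strand) for Reg3g, chr11:49663345-49663594 (plus strand) for Scgb3a1 and chr1:130826434-130826683 (plus strand) for Pigr, and no annotated exon of any gene lies in them. The sequences are given 5′ to 3′ on the strand of the gene, and capitals mark matches to 5 short motifs.
Cyp2f2: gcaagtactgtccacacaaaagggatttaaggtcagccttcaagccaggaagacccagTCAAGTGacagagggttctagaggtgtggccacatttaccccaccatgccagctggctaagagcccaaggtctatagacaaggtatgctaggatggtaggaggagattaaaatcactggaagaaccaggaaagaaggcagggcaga
Ltf: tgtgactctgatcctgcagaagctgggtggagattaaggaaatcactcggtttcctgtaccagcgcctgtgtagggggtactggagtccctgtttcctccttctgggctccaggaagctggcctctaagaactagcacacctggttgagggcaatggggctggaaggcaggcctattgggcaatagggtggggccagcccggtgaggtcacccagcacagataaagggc
Reg3g: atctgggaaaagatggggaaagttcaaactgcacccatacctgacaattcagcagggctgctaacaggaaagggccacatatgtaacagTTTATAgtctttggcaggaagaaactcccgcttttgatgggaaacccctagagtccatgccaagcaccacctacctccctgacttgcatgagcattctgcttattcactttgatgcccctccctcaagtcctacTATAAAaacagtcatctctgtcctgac
Scgb3a1: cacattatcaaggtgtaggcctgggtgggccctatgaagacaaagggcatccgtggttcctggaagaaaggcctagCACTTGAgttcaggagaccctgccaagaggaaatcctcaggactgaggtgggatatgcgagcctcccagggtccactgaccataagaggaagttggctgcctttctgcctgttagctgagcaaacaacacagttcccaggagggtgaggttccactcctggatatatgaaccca
Pigr: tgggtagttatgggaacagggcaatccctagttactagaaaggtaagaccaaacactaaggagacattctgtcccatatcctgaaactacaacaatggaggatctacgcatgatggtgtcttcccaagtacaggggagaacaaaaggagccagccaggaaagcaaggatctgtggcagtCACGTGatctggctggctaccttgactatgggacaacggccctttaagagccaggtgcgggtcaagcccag

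The motifs, chosen after the sequences had been read, were searched on both strands in the 250 bases before the RefSeq start of all 32851 promoter entries, and distances are counted to the RefSeq start. That start lies downstream of the first annotated base of the gene for Cyp2f2 and Ltf, so that their printed windows are shorter. They were the TATA box TATAAA (12.4% of entries), the E-box CACGTG (6.02%), the NKX2 homeobox letters CACTTGA (2.68%) and the forkhead letters TGTTTAC (3.17%) and TATTTAC (2.73%), and no 2 of the matches overlap. Reg3g holds TATAAA with its first base 27 bases before the start, and the same letters on the other strand 161 bases before it. Pigr holds CACGTG 71 bases before the start. Cyp2f2 and Scgb3a1, 2 genes typical of club cells, both hold the NKX2 letters, 192 and 174 bases before the RefSeq start and on opposite strands. The window of Ltf holds none of the 5 motifs. Of the members not shown, Bpifa1 holds TATAAA and TATTTAC.

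The members spanned the whole range of expression, from one of the most abundant transcripts of the organoids to none at all. Levels of different genes are compared as mean normalized counts per kb of exon over the 12 libraries. Cyp2f2 (ENSMUSG00000052974.8, chr7:27119909-27133660) lay at 24198 ± 7489 per kb (SD, n = 12), rank 35 of all 55401 genes. Ltf (ENSMUSG00000032496.7, chr9:111019271-111042767) followed at 8815 ± 2401 per kb and rank 120. Reg3g (ENSMUSG00000030017.2, chr6:78466269-78468872) came next at 2056 ± 560 per kb and rank 621. In every library Cyp2f2 was above Ltf and Ltf above Reg3g, and the ranges of the 3 genes over the libraries did not overlap.

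The genes of the next level were far lower. Scgb3a1 (ENSMUSG00000064057.12, chr11:49663610-49665118) lay at 146 ± 53.1 per kb (SD, n = 12) and Pigr (ENSMUSG00000026417.13, chr1:130826684-130852249) at 112 ± 47.8 per kb. Scgb3a1 was above Pigr in 10 of the 12 libraries, all but those of pair 6. Their ranges over the libraries overlapped, at 65.2 to 210 and 54.4 to 204 per kb. Scgb3a2 (ENSMUSG00000038791.14, chr18:43764289-43767399) lay at 15.5 ± 5.18 per kb, below both in every library.

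Scgb1a1, the usual marker of the mature club cell, was at the bottom with Bpifa1 and Bpifb1, whereas Cyp2f2, another club cell gene, led the members. Scgb1a1 (ENSMUSG00000024653.2, chr19:9083636-9087958) lay at 6.92 ± 5.81 per kb (SD, n = 12), with 24 reads among the 252388304 reads of the 9 libraries with recovered reads. The mean level of Cyp2f2 per kb was 3495 times that of Scgb1a1. Bpifa1 (ENSMUSG00000027483.7, chr2:154142880-154149219) lay at 1.56 ± 2.51 per kb, with 25 reads in the same libraries. Bpifb1 (ENSMUSG00000027485.15, chr2:154190818-154220369) had a count of 0 in all 12 libraries, which in the same 252388304 reads allows up to 3 reads, covering counting error only. The ranges of Scgb3a2, Scgb1a1, Bpifa1 and Bpifb1 overlapped from each gene to the next in the order.

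**Figure D1:**
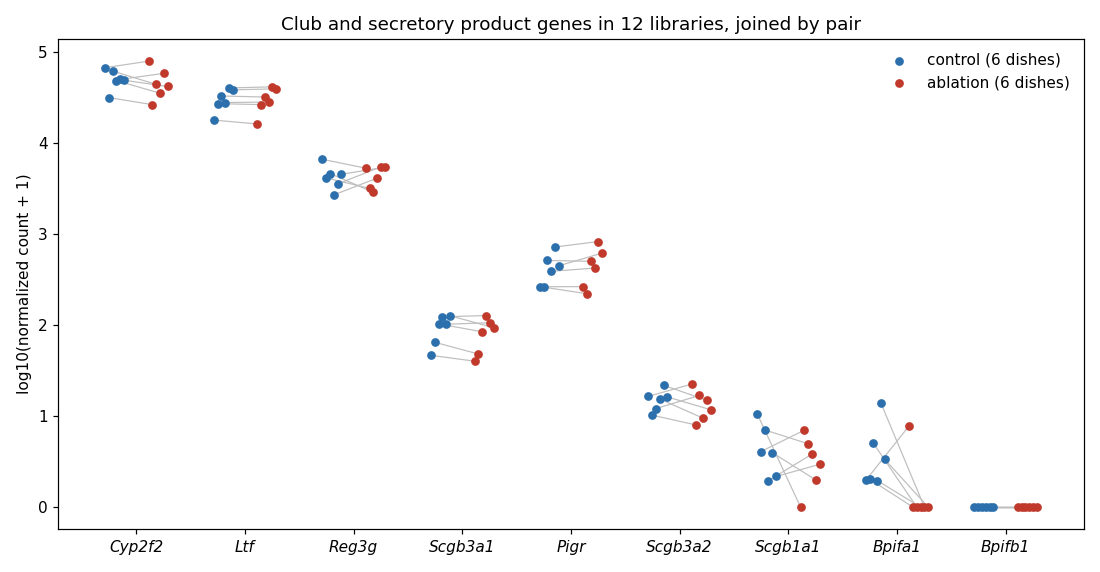
Values of the 9 members, ordered by level per kb, as log10(normalized count + 1) in the 6 control and 6 ablation dishes. Gray lines join the dishes of a pair. Within each gene the control and ablation points overlap, while Bpifa1 is at 0 in 5 of 6 ablation dishes and Bpifb1 in all 12.

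Together the members took 0.198% to 0.381% of all normalized counts of a library (median 0.318%), and Cyp2f2 and Ltf made up 92.4% to 95.9% of this sum. The balance of the leading genes changed between pairs. Per kb, Ltf stood at 0.120 and 0.156 times the level of Cyp2f2 in the ablation and control dish of pair 1, and at 0.313 to 0.587 times in the other 10 libraries. An antisense gene, Gm15883, overlaps exons of Cyp2f2 and had 11.3 to 70.2 normalized counts (median 25.0) in these stranded libraries. No other member shares exon sequence with another gene in the annotation.

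The relatives of the members by name were nearly silent. Of 37 other genes whose symbols start with Scgb, 35 had a count of 0 in all libraries and none reached the count minimum for testing, set at 10 normalized counts or more in 6 libraries or more. Of 12 other Bpif genes, 10 were at 0, and Bpifc alone was tested, with a mean of 34.01 normalized counts. Of 6 other Reg genes, 3 were at 0 in all libraries, among them Reg3b, and Reg1 was the highest with 8.25.

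Other enzymes of secretory cells ranged as widely as the members. On the list of 17 such enzymes 14 were tested, and means ran from 2.61 normalized counts for the monooxygenase Fmo1 upward. Gsto1, a glutathione transferase, had the highest mean at 149338 normalized counts, followed by the carbonyl reductase Cbr2 at 64050 and the alcohol dehydrogenase Adh7 at 22885. The values of these lists are not divided by exon length. Per kb of exon, Gstm1 (11206) and Ces1d (6114) lay above Adh7 (6043). Cytochrome P450 genes ran from 4.88 for Cyp2a4 and 53.3 for Cyp2b10 to 3819 for Cyp2a5. Among 37 other secreted defence products, of which 19 were tested, Wfdc2, a protease inhibitor of airway fluid, led with 33652 normalized counts. Lipocalin Lcn2 had 37.5, and the gel-forming mucins Muc5b and Muc5ac had 12.6 and 1.91. Of 24 regulators of secretory cells 19 were tested, and the lung transcription factors Nkx2-1 and Foxa1 had 1954 and 2377 normalized counts, while Foxa2 had 6.16 and the goblet cell factor Spdef 2.06.

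The basal cell markers were all present, and their sum exceeded that of any other cell type marker list in every library. Krt5 and Krt14, keratins of basal cells, had 276858 and 239821 normalized counts on average. Of 10 multiciliated cell markers 3 were tested, and Foxj1, their defining transcription factor, had 9.87. Of 8 goblet cell markers 3 were tested, led by Agr2. Of the alveolar type II markers Sftpc and Sftpb were at 0 in all libraries, and Abca3 made up 99.4% of the sum of that list. Beside Ltf, which neutrophils also make, the neutrophil genes Mpo, Elane, Ngp and Csf3r had a count of 0 in all 12 libraries and Camp a mean of 0.0974. The other 3 genes of the list were detected, S100a9 with a mean of 18.4, Ly6g with 10.4 and S100a8 with 2.39, with list sums of 19.98 to 63.3 over 8 genes. The leukocyte markers summed to 105 to 178 over 8 genes, of which Cd68 made up 86.6%. In bulk RNA, fewer cells of a type and less RNA per cell cannot be told apart.

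**Figure D2:**
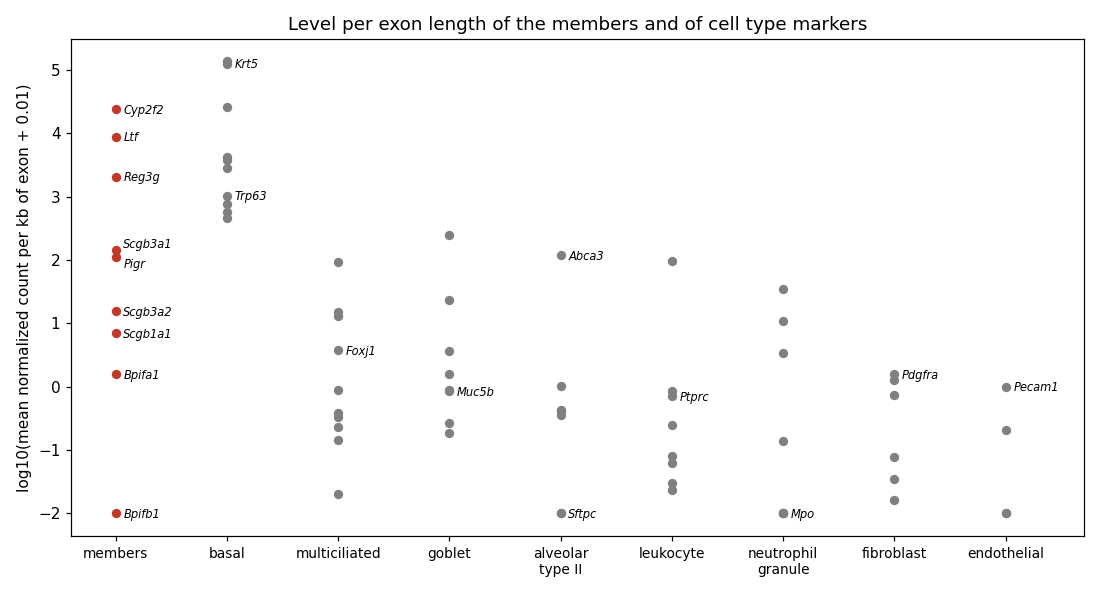
Mean level of each member (red) and of the markers of 8 cell types (gray) as log10(normalized count per kb of exon + 0.01) over 12 libraries. Genes at -2 were at 0 in all libraries. Cyp2f2, Ltf and Reg3g reach the range of the basal cell markers, and Scgb1a1 and the Bpif genes lie among markers of cell types that were barely detected.

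No member differed between ablation and control beyond the spread between dishes. The 6 members over the count minimum (Scgb3a1, Scgb3a2, Cyp2f2, Ltf, Pigr and Reg3g) were tested with all 13792 such genes in 2 models by limma on log2(normalized count + 1), one with library set and one with the pair as a term, with Benjamini-Hochberg adjustment over all genes tested. None was called at an adjusted p of 0.05 in either model. Over all genes the library set model called 0 (0.0%), with 1083 at an unadjusted p under 0.05 (7.85%), and the paired model called 150 (1.09%), with 2433 at an unadjusted p under 0.05 (17.6%). Every limma fold change of a member given here is on the log2(normalized count + 1) scale and is the ablation level against the control level.

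Cyp2f2 had normalized counts of 26191 to 78597 (median 42566) after ablation and of 31286 to 66645 (median 49070) in the control. It was lower after ablation in 4 of 6 pairs and higher in pairs 1 and 6, and the groups overlapped over most of their range. The log2 fold change was -0.16 (SE 0.239, adjusted p = 0.891, limma), with a 95% interval of 0.754- to 1.06-fold in the paired model (adjusted p = 0.474). In the 9 libraries where reads were recovered the sign was turned with either tool. The log2 fold change was 0.13 in edgeR, on the scale of those reads, and 0.093 in limma. These 9 libraries lack both dishes of pair 4 and ablation dish 3, whose 26191 was the lowest value, while control dish 3 was kept.

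The secretoglobins gave small differences of the same sign. Scgb3a1 had 39.0 to 126 normalized counts (median 87.8) after ablation and 45.4 to 125 (median 101) in the control, and was lower after ablation in 4 of 6 pairs. Its log2 fold change was -0.21 (SE 0.278, adjusted p = 0.876, limma), with a paired interval of 0.727- to 1.03-fold. Scgb3a2 had 6.99 to 21.4 (median 12.3) after ablation and 9.21 to 20.7 (median 14.8) in the control, also lower in 4 of 6 pairs. Its log2 fold change was -0.19 (SE 0.270, adjusted p = 0.885, limma), with a paired interval of 0.616- to 1.25-fold at a mean of 13.61 counts.

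Scgb1a1 was under the count minimum. It had 0 to 5.99 normalized counts (median 2.38) after ablation and 0.957 to 9.65 (median 3.02) in the control, and 3 of 6 pairs moved each way. The means were 2.62 and 3.97 (two-sided exact permutation test, p = 0.409, and exact sign-flip test over the 6 pairs, p = 0.625).

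Bpifa1, also under the minimum, had the least even distribution. It was at 0 in ablation dishes 3, 4, 5, 6 and 7 and had 6.82 normalized counts in ablation dish 1. The control dishes 1, 3, 4, 5, 6 and 7 had 0.965, 1.02, 4.03, 0.957, 12.8 and 2.34. In 5 of 6 pairs the control was thus the only dish with a count, by as little as 1 read. The means over the 6 dishes of each group were 1.14 and 3.69 (two-sided exact permutation test, p = 0.294, and exact sign-flip test over pairs, p = 0.375). Leaving out pair 1 removed the only ablation dish with a count, so the groups no longer overlapped. The same permutation test then had to give p = 0.0079, the smallest that 5 against 5 allows. This p is unadjusted and ignores the pairs, so no conclusion is drawn from it. Leaving out any other pair gave p between 0.325 and 0.730.

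The genes of mucosal defence had small mean differences. Ltf had 16079 to 41063 normalized counts (median 29852) after ablation and 17724 to 39960 (median 30104) in the control. The dishes of each pair lay close together, with 3 pairs higher and 3 lower after ablation. The log2 fold change was -0.02 (SE 0.145, adjusted p = 0.987, limma), and the paired model bounded it to 0.932- to 1.04-fold (adjusted p = 0.822).

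Pigr had 219 to 822 normalized counts (median 459) after ablation and 259 to 715 (median 416) in the control, and was higher after ablation in 4 of 6 pairs. Its log2 fold change was 0.08 (SE 0.186, adjusted p = 0.940, limma), with a paired interval of 0.940- to 1.20-fold. Reg3g had 2854 to 5437 (median 4675) after ablation and 2675 to 6574 (median 4300) in the control. Its pairs moved by large amounts in both directions, 3 each way. The log2 fold change was 0.02 (SE 0.217, adjusted p = 0.993, limma), and the paired interval was 0.701- to 1.46-fold.

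**Figure D3:**
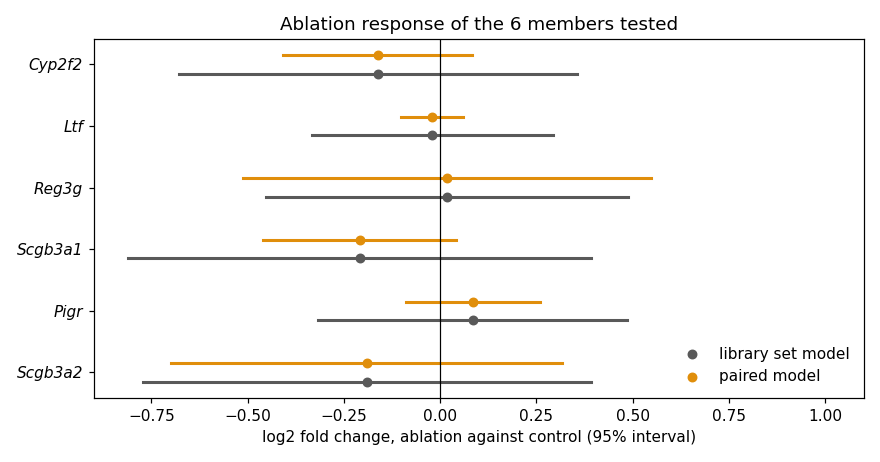
Log2 fold change of the 6 members tested, ablation against control, with 95% intervals from the library set model (gray) and the paired model (orange), 6 dishes per group. All 12 intervals include 0, and that of Ltf in the paired model is the shortest.

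In no member tested did the ablation and control ranges fail to overlap, against 63 of 13792 genes (0.457%), and in none did all 6 pairs move one way, against 9.80% of genes. The median log2 fold change of the 6 members was -0.09, beside -0.00365 over all genes tested. Of the other lists, the library set model called no gene. The paired model called 1 of 14 secretory cell enzymes, 1 of 19 defence products and 1 of 19 regulators, each higher after ablation, beside 1.09% of all genes. These were Aldh1a1, a retinal dehydrogenase (2905 ± 600 in the control and 3890 ± 825 after ablation, SD, n = 6, adjusted p = 0.00184 with limma), Clca1, a secreted goblet cell protein (71.6 ± 17.3 and 106 ± 20.99, adjusted p = 0.0423), and Nfkbiz, a regulator of the NF-κB pathway (1277 ± 193 and 1785 ± 472, adjusted p = 0.0135). The median log2 fold change was -0.00667 for the enzymes, -0.07 for the defence products and -0.03 for the regulators.

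No difference in a member's response to ablation, between library sets or between culture days, passed a test of the difference itself (limma with the pair as a term). Between sets, the difference in log2 response ranged from -0.02 for Scgb3a1 to 0.25 for Pigr (adjusted p = 0.730), and 1 gene of 13792 was called (0.00725%), with 1087 at an unadjusted p under 0.05 (7.88%). Between late and early culture days it ranged from -0.53 for Scgb3a2 (adjusted p = 0.923) to 0.30 for Reg3g, and 0 genes were called (0.0%), with 803 at an unadjusted p under 0.05 (5.82%).

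The members differed in how much of their spread lay between pairs. The SD of the log2 pair means measures the spread between pairs, and the SD of the log2 differences within pairs that between the dishes of a pair, with medians of 0.141 and 0.152 over all genes tested. For a gene whose pairs do not differ, the first would be 0.5 times the second, and all 6 members lay above this ratio, as did the median of all genes. For Ltf the values were 0.459 between and 0.0680 within pairs, a ratio of 6.75 against a median ratio of 0.883. Its spread between pairs exceeded that of 94.6% of genes, while 8.87% of genes had a smaller spread within pairs. Scgb3a1 with 0.609 and 0.218 and Pigr with 0.640 and 0.238 had ratios of 2.79 and 2.69. Cyp2f2 had 0.446 and 0.320, a ratio of 1.39. The ratios were lowest for Scgb3a2, with 0.396 and 0.520 (0.761), and Reg3g, with 0.318 and 0.557 (0.572), both under the median of all genes. Scgb3a2 rests on few counts, which Reg3g does not.

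**Figure D4:**
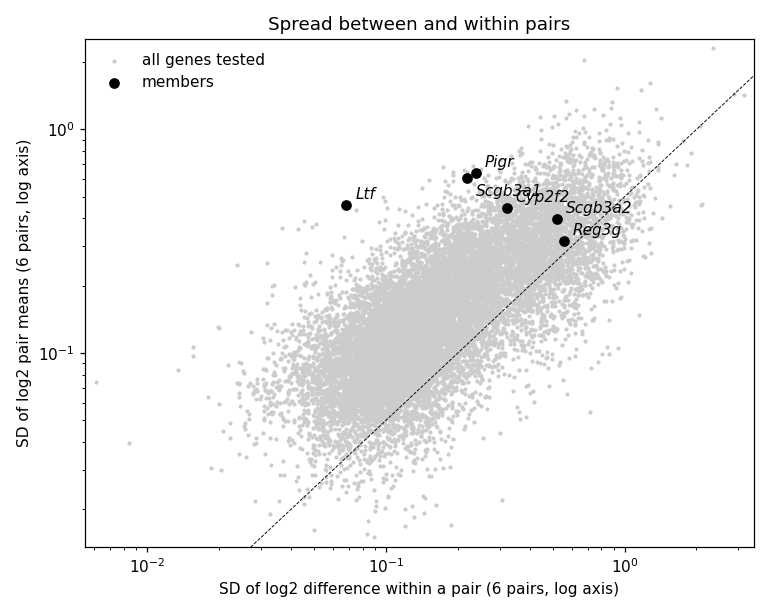
SD of the log2 pair means against the SD of the log2 differences within pairs (6 pairs, both axes logarithmic) for 13792 genes (gray) and the 6 members tested (black). The dashed line marks the ratio of 0.5 given by a gene whose pairs do not differ. All 6 members lie above the line, Ltf the farthest and Reg3g the nearest.

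The pairs differ in passage, and the values of Ltf, Pigr and Scgb3a1 were lower in passage 14 than in passage 16, although no member passed the test of a slope over passages. The comparison by passage was chosen after the values of the members had been seen. Ltf had 16079, 17724, 26201 and 26879 normalized counts in the 4 libraries of passage 14, then 27632, 27944, 31761 and 32576 in passage 15, and 38070, 39043, 39960 and 41063 in passage 16. No library of a passage overlapped with one of the next, an order found in 23 of 13792 genes (0.167%). The slope of the 6 pair means was 0.45 per passage on the log2 scale (SE 0.0926), which after adjustment over all genes did not pass the test (adjusted p = 0.171, limma). Without pair 3 the adjusted p was 0.0403, and over all alternatives it ranged up to 0.9997. Within passage 14 the values of pair 3, at day 20, were above those of pair 1, at day 14. A single passage was thus not uniform.

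Pigr had 219, 259, 262 and 262 normalized counts in passage 14, then 387, 420, 498 and 509 in passage 15, and 445, 613, 715 and 822 in passage 16. Passage 14 stood apart below the other 2, which overlapped. The log2 slope was 0.67 per passage (SE 0.1002, adjusted p = 0.109, limma), the steepest of the members, and with no count minimum the adjusted p was 0.0014, the lowest of a range that reached 0.9997 with library set as a covariate. Scgb3a1 had 39.0, 45.4, 47.0 and 63.4 in passage 14, then 83.1, 102, 122 and 126 in passage 15, and 92.5, 101, 105 and 125 in passage 16. It was higher in passages 15 and 16 than in passage 14 without a further step, with a log2 slope of 0.56 (SE 0.156, adjusted p = 0.250, limma).

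For all 3 genes the libraries of passage 16 lay above all of passage 14, 3 of 6 members tested beside 7.72% of all genes in this direction and 14.7% in either. The same 3 members also had all of passage 15 above all of passage 14, as had 5.13% of genes. The slope test called 5 genes (0.0363%), none of them a member, with 1686 at an unadjusted p under 0.05 (12.2%). Passage and library set are partly confounded here. Every library of set 2 was above every library of set 1 for Ltf (31761 to 41063 against 16079 to 27944) and Pigr (445 to 822 against 219 to 420), as in 1.17% of genes, but not for Scgb3a1. With library set as a covariate the log2 slopes were 0.34 for Ltf, 0.51 for Pigr and 0.77 for Scgb3a1 and 0 genes were called (338 at an unadjusted p under 0.05). In passage 15, which has a pair in each set, the set 2 pair was above the set 1 pair for Ltf and Pigr and below it for Scgb3a1. Passage, set and the single plating of each passage cannot be told apart for passages 14 and 16. Culture day differs too, since the pairs of passage 15 were at days 14 and 15 and those of passage 16 at days 18 and 19. The step of Ltf from passage 15 to 16 therefore cannot be told apart from culture day.

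The slopes of the other members were small against their errors, 0.13 for Scgb3a2 (SE 0.191), 0.05 for Cyp2f2 (SE 0.179) and 0.01 for Reg3g (SE 0.131). Among the other secreted defence products, 1 of 19 was called, the membrane mucin Muc4, with a log2 slope of 0.61 (adjusted p = 0.0186, limma). The median slope of those 19 genes was 0.26, beside -0.00163 over all genes tested and 0.29 for the members. No gene of the enzyme or regulator lists was called. Sums of the basal cell markers were 663246 to 717721 in passage 14, 570071 to 661752 in passage 15 and 551133 to 625018 in passage 16, and the leukocyte sums were 105 to 136, 125 to 158 and 135 to 178. The neutrophil list sums were 19.98 to 23.4, 27.8 to 63.3 and 22.2 to 39.5. The part of these cell types in the values of Ltf, Pigr and Scgb3a1 was not tested.

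**Figure D5:**
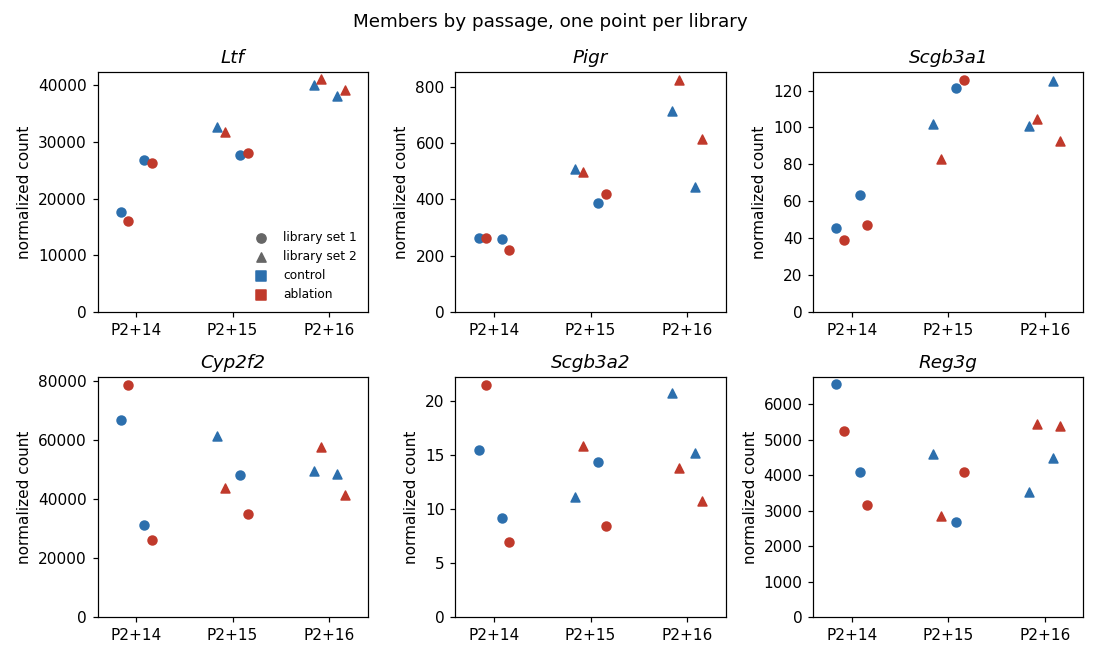
Normalized counts of the 6 members tested in each library by passage after P2, with controls in blue, ablation in red, library set 1 as circles and set 2 as triangles. Within a passage the left and right columns of points are its 2 pairs. Ltf is ordered by passage without overlap, Pigr and Scgb3a1 are lowest in passage 14, and the lower row shows no such order.

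By culture day no member was called. Late pairs (days 18 to 20, pairs 3, 6 and 7) were compared with early ones (days 14 and 15, pairs 1, 4 and 5) over the pair means by limma, and 0 of 13792 genes were called (0.0%), with 624 at an unadjusted p under 0.05 (4.52%). Ltf had 26201 to 41063 normalized counts in late and 16079 to 32576 in early libraries (log2 difference 0.49, SE 0.252, adjusted p = 0.994). Cyp2f2 ran the other way, at 26191 to 57750 in late and 34975 to 78597 in early libraries (log2 difference -0.39, SE 0.265, adjusted p = 0.994). The late pairs held both pairs of passage 16 and the early pairs none, so culture day is partly confounded with passage and library set. With library set as a covariate the log2 differences were 0.30 for Ltf and -0.50 for Cyp2f2. The widest gap for Cyp2f2 was within passage 14, with 66645 and 78597 in pair 1 at day 14 and 26191 and 31286 in pair 3 at day 20. For Scgb1a1 and Bpifa1 the exact permutation tests of 3 against 3 pair means gave p = 0.3 and p = 0.8, where 0.1 is the smallest possible.

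Across the 12 libraries the members did not vary as 1 group. Pearson correlations of log2 values, which share passage, set and pair and are given as a description, were 0.82 for Ltf and Pigr, 0.78 for Ltf and Scgb3a1 and 0.73 for Pigr and Scgb3a1. Scgb3a2 and Cyp2f2 had r = 0.79 (0.96 over the 6 pair means). Between these groups the values ran from -0.27 for Cyp2f2 and Ltf to 0.28 for Scgb3a2 and Pigr (0.42 over the pair means), with 0.22 for Cyp2f2 and Pigr. Reg3g had 0.52 with Cyp2f2 (0.70 over the pair means), 0.14 with Scgb3a2 (0.71) and -0.21 with Ltf (-0.32).

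Of all 13792 genes tested, those with the most similar pattern over the 12 libraries were Acss1 (r = 0.97), Rmnd5a (0.97) and Usp32 (0.96) for Cyp2f2, and Fbxo11 (0.95), Syt8 (0.95) and Plat (0.94) for Ltf. For Pigr they were Itgam (0.95), Muc20 (0.92) and the lung transcription factor Nkx2-1 (0.92). For Scgb3a1 they were Birc3 (0.93), H2-Q4 (0.93) and Nr2f2 (0.92), for Scgb3a2 Fam168a (0.89), Golph3l (0.89) and Lhfpl1 (0.87), and for Reg3g Plch1 (0.90), Rassf3 (0.90) and Thap2 (0.89).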

How the data were processed

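RNA was measured in 12 organoid libraries grouped by their treatment label. Per the methods, stranded poly(A) libraries were read in pairs of 75 bases, processed with nf-core/rnaseq against the GENCODE mouse annotation (GRCm38.p6), and tested by the authors with DESeq2 with condition and batch. The signal values used are the normalized counts the authors deposited, read counts divided by 1 size factor per library. The deposited table also holds the authors' log2 fold changes, score columns and p-values, which were not used. The batch was taken as the library set.

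The members and lists were chosen with earlier results of these data known. Every member is named, beside list genes that passed a test or had the highest means and the 3 genes most like each member. Genes reaching 10 normalized counts in 6 libraries or more (13792 of 55401, 28534 with any count) were tested with limma 3.58.1 in R 4.3.3 on log2(value + 1) with trended, robust eBayes. The fits were tested on simulated data. Library values were whole multiples of 1 step (100% of low values), which gave back reads for 9 libraries, tested with edgeR 4.0.16. Exact tests used scipy 1.17.1.

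Same-numbered samples share passage and culture day, and their deviations from the group means correlated over genes with r = 0.62, 0.49, 0.21, 0.32, 0.38 and 0.33 in pairs 1, 3, 4, 5, 6 and 7, so the pairing was used in a paired model (the replicate block). Nothing in the labels ties dishes to separate mice, so p-values after ablation measure the spread between dishes, which may be technical. In the library set model this spread also holds differences between pairs. For Ltf the SE was 0.145 in that model and 0.0375 in the paired model. The p-values by passage and culture day measure the spread between pair means. Both pairs of a passage go back to a single plating, so they are not independent replicates of that passage.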

Additional observations from a re-analysis of the deposited data

Results flagged for a closer look

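Bpifa1 was flagged in 1 library of each group, since ablation dish 1 with 6.82 normalized counts and control dish 6 with 12.8 lay apart from the other 5 dishes of their group. In 16 groups of 6 libraries looked at, chance alone flags about 1 in 20. The other 5 ablation dishes were at 0, so any count in dish 1 would have lain apart. This rate therefore cannot be applied to that flag.

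Ltf and Reg3g were flagged because both pairs of passage 14 were lower after ablation and both pairs of passage 16 were higher. The mean log2 pair difference was greater in passage 16 by 0.127 for Ltf and by 0.793 for Reg3g. The log2 pair differences of Ltf were -0.141 and -0.0368 in passage 14 and 0.0393 and 0.0364 in passage 16. The differences between passages were not tested. The share of all genes with this pattern of signs was not counted, so it is not read as a trait of these members.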

How the results depend on the processing

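No member that was tested by limma or edgeR was called after ablation or by culture day under any alternative run. Bpifa1, under the count minimum, had an unadjusted p of 0.0079 in the exact permutation test after ablation without pair 1 (difference of means -4.24 normalized counts). Pair 1 held its only ablation dish with a count, so that p was fixed by leaving this pair out. Of the alternatives for counts of calls, 74 stayed within 1.5 times the main count and 18 did not. Of those for single members, 242 kept their direction and side of the threshold and 33 reversed. Another 3 passed the threshold, Bpifa1 by the unadjusted p just given and the passage slopes of Pigr and Ltf. After ablation, the paired fit (replicate block) called 150 genes and a fit with no count minimum 3, where the main fit called 0. The replicate block changed no call of a member. By culture day the counts were 1 with library set as a covariate and 3 with no count minimum, against 0. For the slope per passage, with 5 genes and 0 members, they were 10 in control libraries, 1 in ablation libraries, 0 with library set as a covariate, 132 with no count minimum (1 member, Pigr), 0 with plain eBayes, and 0 to 17 when 1 pair was left out (members 0 to 1, the 1 being Ltf without pair 3). For the response by library set, 1 gene became 0 with plain eBayes and 0 without the block.

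Signs reversed as follows, on the log2 scale, and the cause was not tested. After ablation, Cyp2f2 gave 0.13 with edgeR on the 9 libraries with recovered reads and 0.093 with limma on the same libraries, an alternative added after the data were seen, in which both tools called 0 genes (807 and 810 at an unadjusted p under 0.05). Ltf gave 0.022 with quantile normalization and 0.013 in set 2, and Pigr and Reg3g gave -0.040 and -0.029 in set 1. With 1 pair left out, the range was -0.032 to 0.0037 for Ltf and -0.10 to 0.16 for Reg3g, and for Scgb1a1 the difference of means was -2.21 to 0.301 normalized counts. By culture day, the library set covariate gave -0.10 for Scgb3a1 and -0.059 for Pigr, and control libraries gave 0.079 for Scgb3a2 and -0.10 for Reg3g. With 1 pair left out the ranges were -0.33 to 0.44 for Scgb3a1, -0.42 to 0.079 for Scgb3a2, -0.092 to 0.75 for Pigr and -0.11 to 0.30 for Reg3g. Slopes per passage reversed to -0.012 for Scgb3a2 in ablation libraries, -0.11 for Cyp2f2 and -0.057 for Reg3g with the set covariate and -0.19 for Reg3g in control libraries. With 1 pair left out they were -0.086 to 0.38 for Scgb3a2, -0.23 to 0.35 for Cyp2f2 and -0.088 to 0.22 for Reg3g.

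Count models on all 12 libraries (edgeR and DESeq2) were planned and not run, since reads were not recovered for ablation 3, ablation 4 and control 4. Depth limits Scgb1a1 and Bpifa1, with 24 and 25 reads in 9 libraries, and Scgb3a2 with 130.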
